A study of Homo sapiens with 24 samples.

Results

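The liver X receptors and their sterol efflux targets were represented by 6 genes of the read-count table, selected by gene symbol: NR1H2 and NR1H3, which encode the receptors LXRβ and LXRα, and the target genes ABCA1, ABCG1, MYLIP and LPCAT3. All 6 symbols sought were found among the 14493 genes of the table. The libraries came from SKBR3, a human breast cancer cell line with ERBB2 amplification. The study was on therapy-induced senescence (TIS), a senescence-like arrest of proliferation provoked by anticancer drugs. Its main question was how senescence caused by inhibitors of de novo fatty acid synthesis (FASTIS) compares with senescence caused by other drugs. RNA was sequenced from 24 libraries in 8 groups of 3.

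The FASTIS groups received 250 nmol/L ND-646, an inhibitor of acetyl-CoA carboxylase (ACC), or 250 nmol/L TVB-3166, an inhibitor of fatty acid synthase (FASN). The remaining TIS groups received 10 µmol/L bleomycin (a DNA-cleaving agent), 10 nmol/L doxorubicin (an anthracycline), 1 µmol/L palbociclib (a CDK4/6 inhibitor, spelled Palboclib in the labels) or 500 nmol/L alisertib (an Aurora A kinase inhibitor). All 6 drug groups were refed on day 3 and collected on day 7. Untreated cells collected on day 0 served as the proliferative control, and untreated cells collected on day 7 as the control for time in culture. The labels give no refeeding for the untreated day-7 cells. By the labels, an effect of a drug therefore cannot be told apart from one of refeeding in comparisons with untreated cells. Each group is a whole drug-exposed population of 1 cell line, so a change of cell composition cannot be told apart from a change of RNA per cell. The labels number the replicates and do not say whether they were separate cultures, so the p-values below measure only the spread between these libraries.

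LXRα and LXRβ are nuclear receptors that bind oxysterols and act as heterodimers with retinoid X receptors on target genes. Their targets lower cell cholesterol: ABCA1 and ABCG1 export it to lipid-poor apolipoprotein and to lipoprotein particles, and MYLIP (also called IDOL) is a ubiquitin ligase that directs lipoprotein receptors to degradation. LPCAT3 places polyunsaturated acyl chains into phospholipids. LXR also drives SREBF1 and lipogenic enzymes, whereas the SREBP2 branch raises cholesterol synthesis and uptake and is usually engaged when sterol is scarce.

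The classical LXR element is a direct repeat of the half-site AGGTCA with 4 bases between the copies (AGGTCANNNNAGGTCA). RefSeq promoter windows, from 250 bases before to 50 bases after a transcript start on GRCh38.p14, could be matched by symbol for 5 of the 6 genes, all but ABCG1. With at most 1 mismatch in each half-site on either strand, the repeat was present in 484 of 35116 windows (1.38%). Among the windows of the 5 genes, it was present in ABCA1 only, from 69 to 54 bases before the start. None of the windows of the 12 other LXR target genes with an entry held it. The ABCA1 sequence is shown because it is the promoter, among those available, that carries this repeat. It covers the 250 bases before the start at chr9:104928156-104928405 on the minus strand, read in the direction of transcription, with the half-sites in capitals:
ABCA1: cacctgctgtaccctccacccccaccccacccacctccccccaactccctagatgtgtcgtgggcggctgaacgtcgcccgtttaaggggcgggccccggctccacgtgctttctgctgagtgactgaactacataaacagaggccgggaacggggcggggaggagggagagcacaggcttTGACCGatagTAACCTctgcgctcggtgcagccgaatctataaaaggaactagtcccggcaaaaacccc
Read on the opposite strand, the match is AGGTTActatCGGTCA, with 1 mismatch in each half-site. A letter match says nothing about receptor occupancy, which was not measured.

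SKBR3 identity was checked on 8 markers, of which 7 were in the table (ERBB2, KRT8, KRT18, KRT19, EPCAM, TFAP2A and GRB7) with a summed level of 10047 to 20216 CPM per library. CPM denotes the count of a gene relative to a fixed library total, after TMM scaling of all 24 libraries. The table lists no CDH1, nor PTPRC, CD14, CD163, MARCO, MSR1 or LYZ of the 8 macrophage markers, and its lowest count is 1. The macrophage genes present, CSF1R and CD68, summed to 7.42 to 15.1 CPM in day-0 libraries, 51.9 to 63.3 CPM with ND-646, 35.4 to 42.8 CPM with TVB-3166 and 61.9 to 80.3 CPM with bleomycin. They summed to 27.7 to 32.6 CPM with doxorubicin and 26.0 to 33.4 CPM with palbociclib. In alisertib libraries they summed to 9.15 to 10.9 CPM, and in day-7 libraries to 7.78 to 16.7 CPM. Of 7 fibroblast markers only COL1A1 was listed, at 6.43 to 15.3 CPM. Library totals ranged from 29405121 to 44316330 counts. ND-646 replicate 1 stood apart from its group, at a distance of up to 86.6 between log2 CPM profiles where the replicates of the other 7 groups differed by 36.3 to 61.8. Results that rest on it are given without it below.

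All changes of the 6 genes that passed the test, in any comparison with untreated cells, were increases. ABCA1, ABCG1, MYLIP and LPCAT3 rose with both ND-646 and TVB-3166 relative to both untreated groups, and the transporters rose most. With the other 4 drugs the changes of ABCA1, ABCG1, MYLIP and LPCAT3 were smaller and more uneven. Relative to day-7 cells some were near or below 0, such as ABCG1 with doxorubicin (log2 fold-change -0.17), which did not pass the test. NR1H3 passed the test with bleomycin and with no other drug, and whether bleomycin differed from the other drugs was not tested. The contrast between the FASTIS groups and the other 4 drugs is tested further below. A gene was called at a Benjamini-Hochberg adjusted p-value under 0.05 over all genes tested, using edgeR's quasi-likelihood test.

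**Figure D1:**
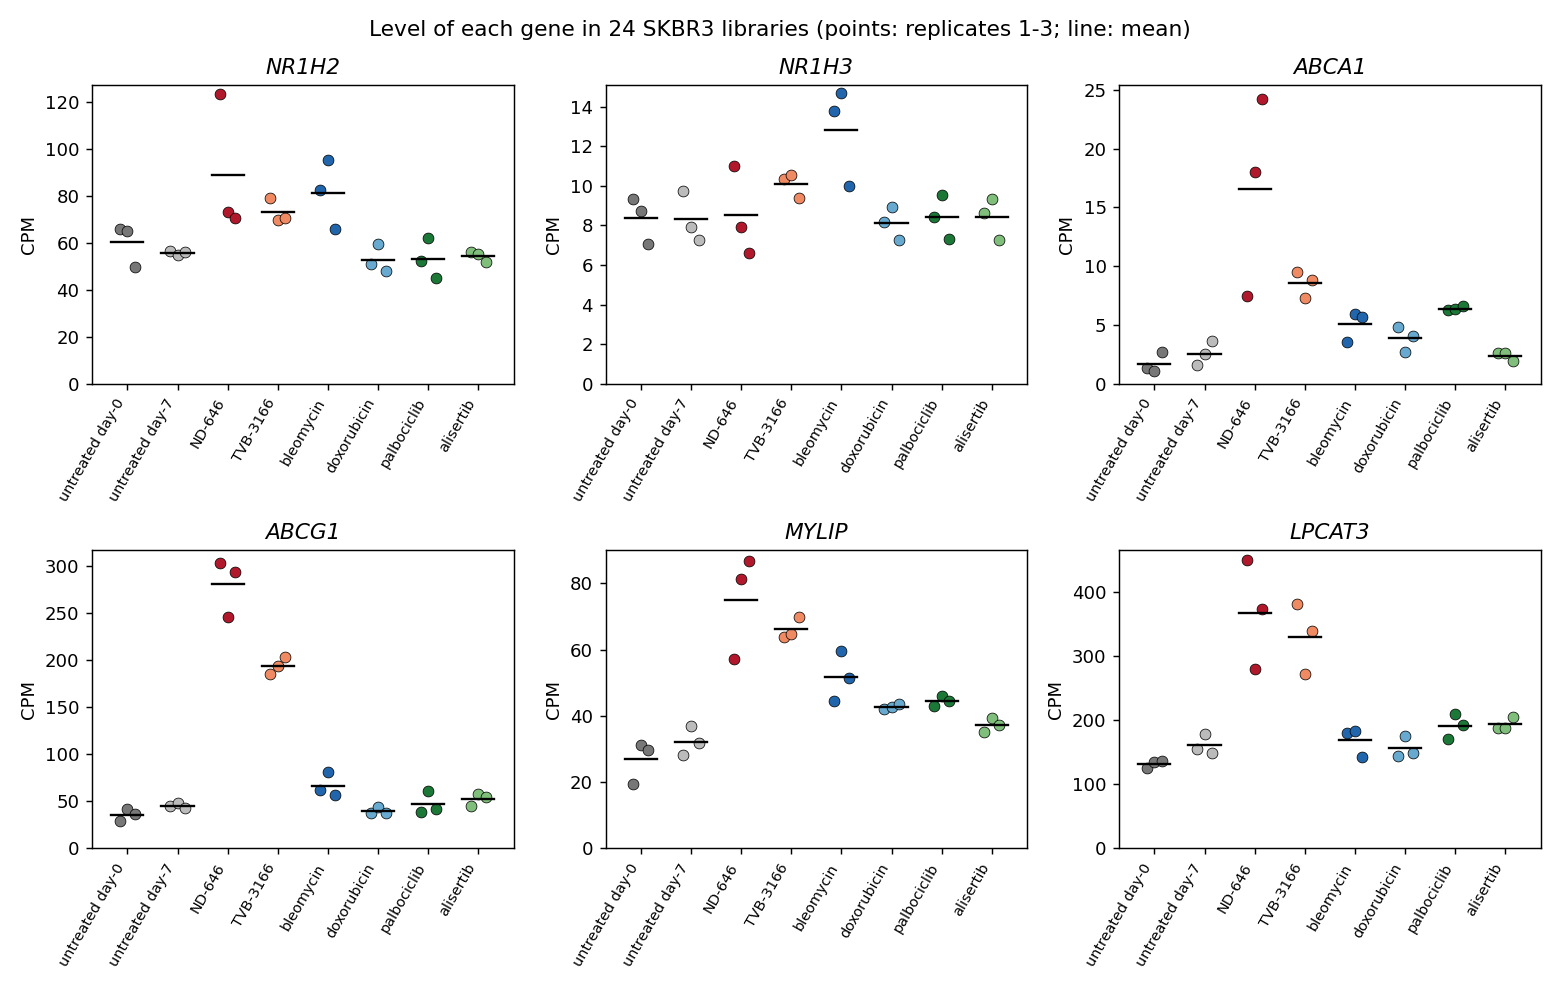
Level of each of the 6 genes in every library (CPM after TMM scaling, linear axis from 0 and different for each gene) by group, with points for replicates 1 to 3 and a line at the mean. ABCG1 lies at 186 to 304 CPM in the ND-646 and TVB-3166 libraries and at no more than 80.8 CPM in the other 18, and the ABCA1 level of ND-646 replicate 1 (7.48 CPM) is far below the other ND-646 replicates.

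Relative to day-0 cells, 4 of the 6 genes were higher in ND-646 TIS cells, where 19.1% of 13604 genes were called higher. Without ND-646 replicate 1 the count was also 4, beside 27.1% of 13798 genes. The same count, 4 of 6, was found in TVB-3166 TIS cells beside 27.4% of all genes. In bleomycin TIS cells all 6 genes were higher (24.1% of all genes), in doxorubicin TIS cells 2 (23.7%), in palbociclib TIS cells 3 (26%) and in alisertib TIS cells 3 (17.7%). None of the 6 was called in untreated day-7 cells, where 0.389% of all genes were higher. By edgeR's unadjusted p-value under 0.05 there were 2 (ABCG1 and LPCAT3), and DESeq2 called 0. By that unadjusted p-value ABCG1 ranked 2078 and LPCAT3 1282 among 13636 genes. Many other genes thus passed this rule, and the count of 2 is no result about the 6 genes as a set.

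Relative to day-7 cells, 5 genes were higher with ND-646 (17.2% of all genes), 5 with TVB-3166 (25.4%) and 5 with bleomycin (22.4%). Without ND-646 replicate 1 the ND-646 count was also 5, beside 26.7% of all genes. Doxorubicin gave 1 (21.9%), palbociclib 3 (22%) and alisertib 1 (9.55%). The doxorubicin and alisertib counts are near the share of all genes and are no result about the 6 genes as a set. With 6 genes, each count is a description of named genes, which follow by role. Comparisons with the same untreated group share its 3 libraries.

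NR1H2 (NCBI Gene 7376, GRCh37 chromosome 19, 50832910 to 50886645, plus strand) was the more abundant receptor transcript. It measured 66.0, 65.0 and 50 CPM in the day-0 libraries and 56.5, 54.9 and 56.1 CPM in the day-7 libraries. It measured 124, 73.3 and 70.7 CPM with ND-646, 79.2, 69.6 and 70.7 CPM with TVB-3166, and 82.5, 95.5 and 66.0 CPM with bleomycin. Every ND-646 and TVB-3166 library lay above all 6 untreated libraries, with ND-646 replicate 1 the highest of the 24, whereas bleomycin replicate 3 reached only the top of the day-0 range. Doxorubicin, palbociclib and alisertib libraries spanned 45.2 to 62.0 CPM and overlapped the untreated groups.

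Against day-7 cells NR1H2 rose with ND-646 by 0.67 ± 0.21 on the log2 scale (SE, adjusted p = 0.0406), with TVB-3166 by 0.40 ± 0.08 (adjusted p = 0.00166) and with bleomycin by 0.56 ± 0.13 (adjusted p = 0.00755). The ND-646 call was lost without any one of the day-7 replicates 1, 2 and 3 (adjusted p up to 0.123) and with total-count scaling (0.42, adjusted p = 0.0869). Without ND-646 replicate 1 the value was 0.36 (adjusted p = 0.00413). The TVB-3166 call was lost in a fit of all 24 libraries (adjusted p = 0.0719). Against the more variable day-0 libraries the log2 fold-change was 0.56 ± 0.23 with ND-646 (adjusted p = 0.088) and 0.28 ± 0.12 with TVB-3166 (adjusted p = 0.0612), neither of which passed. The first passed in the fit of all 24 libraries (adjusted p = 0.00783), and the ND-646 value without ND-646 replicate 1 was 0.25. The TVB-3166 value passed in 4 of the 7 other fits tried (adjusted p of 0.0489 by DESeq2, 0.0472 with at least 10 counts in every library, 0.0389 with replicate numbers as a block and 0.0394 with total-count scaling) and without day-0 replicate 1 (adjusted p = 0.0211). With bleomycin NR1H2 rose by 0.44 ± 0.16 over day-0 cells (adjusted p = 0.043).

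NR1H3 (NCBI Gene 10062, chromosome 11, 47269851 to 47290584, plus strand) stayed between 6.59 and 11 CPM in every library outside the bleomycin group. The bleomycin libraries measured 13.8, 14.7 and 9.96 CPM, so 2 of 3 lay above all other libraries. The rise with bleomycin was 0.62 ± 0.19 on the log2 scale over day-0 cells (adjusted p = 0.0243) and 0.64 ± 0.19 over day-7 cells (adjusted p = 0.0223). With ND-646 the log2 fold-change over day-0 cells was 0.01, with a 95% confidence interval from -0.52 to 0.54. With TVB-3166 it was 0.28, from -0.06 to 0.61. Against day-7 cells it passed with TVB-3166 only when day-7 replicate 1 was left out (adjusted p = 0.0405). These intervals leave room for a modest change of NR1H3 in either FASTIS group.

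Per length of exon sequence, in RPKM, NR1H2 exceeded NR1H3 in every group. The ratio of NR1H2 to NR1H3 RPKM was 8.84 ± 0.854 (SD, n = 3) with ND-646, from 7.88 to 9.52 in its libraries. In the other 7 groups its mean lay between 5.35 with palbociclib and 6.17 with TVB-3166, and no library outside ND-646 exceeded 6.55. The ratio does not depend on library scaling, and it was not tested. NR1H2 overlaps NAPSA, NAPSB and a long noncoding RNA, among others, on the opposite strand, and NR1H3 overlaps ACP2 by 607 bases. Whether the counting used strand is not given in the sources used here, so reads of such partners could be included. ACP2 measured 172 ± 32.9 CPM with ND-646 and 109 ± 3.88 CPM in day-0 cells (SD, n = 3). The part of these partners in the receptor counts was not tested.

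ABCG1 (NCBI Gene 9619, chromosome 21, 43619799 to 43717354, plus strand) exports cholesterol to lipoprotein particles and gave the clearest separation of the FASTIS groups. It measured 29.6, 42.3 and 36.3 CPM in the day-0 libraries and 44.6, 48.8 and 43.5 CPM in the day-7 libraries. With ND-646 it measured 304, 246 and 294 CPM, and with TVB-3166 186, 194 and 204 CPM. The FASTIS libraries did not overlap any other library, nor did ND-646 overlap TVB-3166. Over day-0 cells the log2 fold-change was 2.96 ± 0.18 with ND-646 (adjusted p = 1.6e-05, a 7.76-fold change) and 2.44 ± 0.13 with TVB-3166 (adjusted p = 3.17e-07, 5.41-fold). It ranked at position 114 of 13604 genes by log2 fold-change with ND-646 and 182 of 13686 with TVB-3166. Over day-7 cells the values were 2.62 ± 0.14 with ND-646 (adjusted p = 5.47e-05) and 2.1 ± 0.08 with TVB-3166 (adjusted p = 1.42e-07).

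The other drugs changed ABCG1 far less. Bleomycin libraries measured 62.0, 80.8 and 56.5 CPM, all above the untreated range, with log2 fold-changes of 0.89 ± 0.17 over day-0 cells (adjusted p = 0.00235) and 0.56 ± 0.14 over day-7 cells (adjusted p = 0.00955). Alisertib libraries measured 45.2, 57.6 and 54.3 CPM, 0.54 ± 0.14 above day-0 cells (adjusted p = 0.0132), and the call was lost without alisertib replicate 2 or replicate 3 (adjusted p up to 0.0614). Doxorubicin (37.4, 43.9 and 38.2 CPM) and palbociclib (38.8, 61.1 and 42.2 CPM) overlapped the untreated libraries and passed neither test. The palbociclib difference from day-0 cells was called by DESeq2, in the fit of all 24 libraries, and without day-0 replicate 2 or palbociclib replicate 1.

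ABCA1 (NCBI Gene 19, chromosome 9, 107543287 to 107690436, minus strand) loads cholesterol and phospholipid onto apolipoprotein A-I. In untreated cells it was the least abundant of the 6 genes. Its level was 1.37, 1.06 and 2.69 CPM in the day-0 libraries and 1.6, 2.49 and 3.62 CPM in the day-7 libraries. It measured 7.48, 18 and 24.3 CPM with ND-646 and 9.47, 7.31 and 8.82 CPM with TVB-3166, all above every library of the other 6 groups. The ND-646 replicates spread more than 3-fold, with replicate 1 inside the TVB-3166 range. Over day-0 cells the log2 fold-change was 3.28 ± 0.49 with ND-646 (adjusted p = 0.00116, 9.69-fold) and 2.32 ± 0.30 with TVB-3166 (adjusted p = 6.86e-05, 5.01-fold). Without ND-646 replicate 1 the ND-646 value was 3.63. Over day-7 cells the values were 2.70 ± 0.46 (adjusted p = 0.00304) and 1.75 ± 0.25 (adjusted p = 0.000194).

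Unlike ABCG1, ABCA1 was also well above untreated cells with palbociclib, at 6.25, 6.35 and 6.60 CPM in tightly grouped libraries. Its log2 fold-change was 1.90 ± 0.30 over day-0 cells (adjusted p = 0.000413) and 1.34 ± 0.25 over day-7 cells (adjusted p = 0.00152), and both calls held without any 1 library. Bleomycin libraries measured 3.56, 5.97 and 5.64 CPM, 1.57 ± 0.36 above day-0 cells (adjusted p = 0.00564) and 1.00 ± 0.32 above day-7 cells (adjusted p = 0.0295). The day-7 call was lost without day-7 replicate 1 or 2 or bleomycin replicate 2 or 3 (adjusted p up to 0.095) and with total-count scaling (adjusted p = 0.0563). Doxorubicin libraries measured 4.81, 2.68 and 4.08 CPM, 1.19 ± 0.35 above day-0 cells (adjusted p = 0.0172), and that call was lost without day-0 replicate 2 or doxorubicin replicate 1 (adjusted p up to 0.08). Against day-7 cells it was called only without day-7 replicate 3 or doxorubicin replicate 2. Alisertib libraries, at 2.58, 2.58 and 1.97 CPM, lay within the untreated range.

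The transporters were also compared per length. The RPKM ratio of ABCG1 to ABCA1 was 13.7 ± 3.54 (SD, n = 3) with palbociclib and 42.8 ± 6.36 (SD, n = 3) with TVB-3166, with library ranges of 11.5 to 17.8 and 36.4 to 49.1. With ND-646 it ran from 22.5 to 75.3, the latter in replicate 1, and in day-0 cells from 25.0 to 74.3. The low ABCA1 counts make this ratio imprecise, and it was not tested.

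MYLIP (NCBI Gene 29116, chromosome 6, 16129317 to 16148479, plus strand) was the gene called in the most groups: it passed with all 6 drugs relative to day-0 cells and with 5, all but alisertib, relative to day-7 cells. It measured 19.5, 31.4 and 29.8 CPM in the day-0 libraries and 28.1, 37 and 31.7 CPM in the day-7 libraries. With ND-646 it measured 57.3, 81.3 and 86.8 CPM and with TVB-3166 63.7, 64.6 and 70.0 CPM. ND-646 replicate 1 was again the lowest of its group but exceeded all untreated libraries. Over day-0 cells the log2 fold-changes were 1.48 ± 0.23 (adjusted p = 0.00151) and 1.31 ± 0.16 (adjusted p = 4.5e-05). Over day-7 cells they were 1.22 ± 0.19 (adjusted p = 0.00209) and 1.04 ± 0.11 (adjusted p = 1.59e-05).

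Bleomycin libraries measured 44.4, 59.6 and 51.5 CPM of MYLIP, a log2 fold-change of 0.96 ± 0.19 over day-0 cells (adjusted p = 0.0027). Doxorubicin (42.0, 42.8 and 43.7 CPM) and palbociclib (43.1, 46.0 and 44.7 CPM) gave 0.69 ± 0.16 (adjusted p = 0.00594) and 0.73 ± 0.16 (adjusted p = 0.00281). Alisertib (35.0, 39.3 and 37.2 CPM) gave 0.47 ± 0.16 (adjusted p = 0.0414), a call that was lost without any one of the alisertib replicates 1, 2 and 3 (adjusted p up to 0.131). Relative to day-7 cells the values were 0.70 ± 0.14 with bleomycin (adjusted p = 0.00368), 0.44 ± 0.11 with doxorubicin (adjusted p = 0.00552) and 0.48 ± 0.10 with palbociclib (adjusted p = 0.00353). For alisertib the adjusted p-value was 0.168, and MYLIP passed when replicate numbers entered as a block, which raised the count of the 6 genes called against day-7 cells from 1 to 2. It also passed without day-7 replicate 2. Against day-0 cells, 5 genes were called with alisertib without day-0 replicate 3, ABCA1 and a lower NR1H2 being added.

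LPCAT3 (NCBI Gene 10162, chromosome 12, 7085347 to 7125781, minus strand) was the most abundant of the 6 genes per length, at 28.1 ± 1.29 RPKM (SD, n = 3) in day-0 cells and 78.4 ± 18.1 RPKM (SD, n = 3) with ND-646. It measured 125, 134 and 136 CPM in the day-0 libraries and 155, 178 and 149 CPM in the day-7 libraries. With ND-646 it measured 450, 280 and 373 CPM and with TVB-3166 381, 271 and 339 CPM. Replicate 2 was the lowest in both groups, and every FASTIS library exceeded the other 18, which reached at most 210 CPM. Over day-0 cells the log2 fold-changes were 1.47 ± 0.19 (adjusted p = 0.000479) and 1.33 ± 0.12 (adjusted p = 7.82e-06). Over day-7 cells they were 1.19 ± 0.18 (adjusted p = 0.00186) and 1.05 ± 0.12 (adjusted p = 3.84e-05).

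With the other drugs the LPCAT3 increases were small. Palbociclib libraries (171, 210 and 192 CPM) lay 0.53 ± 0.09 above day-0 cells (adjusted p = 0.000884), and alisertib libraries (187, 187 and 206 CPM) 0.55 ± 0.08 (adjusted p = 0.00105). Relative to day-7 cells these differences were 0.26 ± 0.09 (adjusted p = 0.0436) and 0.28 ± 0.08 (adjusted p = 0.0373). The palbociclib call was then lost without day-7 replicate 1 or 3 or palbociclib replicate 2 or 3 (adjusted p up to 0.157), and the alisertib call without day-7 replicate 1 or 3 or any alisertib replicate 1, 2 or 3 (adjusted p up to 0.156). Both were also lost in the fit of all 24 libraries (adjusted p = 0.191 and 0.283). Bleomycin libraries (179, 184 and 142 CPM) lay 0.36 ± 0.12 above day-0 cells (adjusted p = 0.0332) and passed no test against day-7 cells. Doxorubicin libraries (145, 175 and 149 CPM) lay 0.26 ± 0.10 above day-0 cells, which did not pass (adjusted p = 0.0526). That difference was called by DESeq2, with at least 10 counts in every library, with the replicate block and with total-count scaling. Against day-7 cells the doxorubicin value was -0.01. LPCAT3 overlaps EMG1, C1S and a further coding gene model on the opposite strand, and in the 8 groups mean EMG1 levels ran from 50.2 to 70.4 CPM. EMG1 measured 65.2 ± 18.1 CPM with ND-646 and 64.6 ± 5.80 CPM in day-0 cells (SD, n = 3).

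Several bleomycin calls were lost when 1 library was left out. Of the 6 genes called against day-0 cells, 3 (ABCA1, ABCG1 and MYLIP) were left without day-0 replicate 2, day-0 replicate 3, bleomycin replicate 1 or bleomycin replicate 2, and LPCAT3 was also lost without day-0 replicate 1. In addition the NR1H2 call over day-0 cells was lost with no filter on low counts (adjusted p = 0.0528), and that of LPCAT3 with total-count scaling (adjusted p = 0.0518). Against day-7 cells the NR1H3 call was lost without day-7 replicate 2 or 3 or bleomycin replicate 1 or 2 (adjusted p up to 0.0923). In contrast, the calls of ABCA1, ABCG1, MYLIP and LPCAT3 with ND-646 and TVB-3166, against either untreated group, held without any 1 library and in each of the 7 other fits tried at the same threshold.

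**Figure D2:**
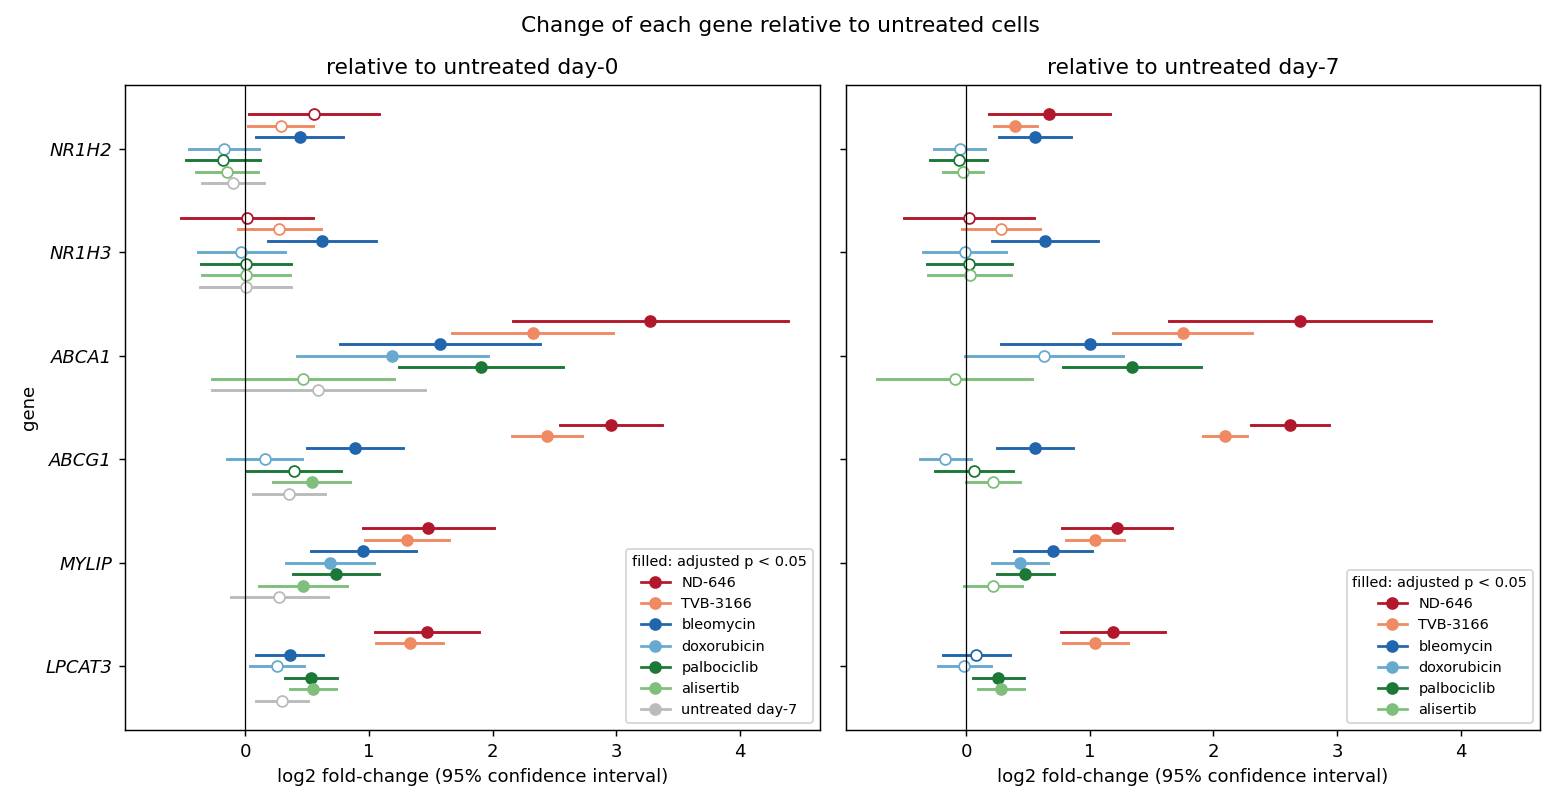
Log2 fold-change of each gene in each drug group, and in untreated day-7 cells, relative to untreated day-0 cells (left) or untreated day-7 cells (right), with 95% confidence intervals and filled points for an adjusted p-value under 0.05. The ABCG1 values of ND-646 (2.96) and TVB-3166 (2.44) stand clear of the other drugs, while the ABCA1 intervals of ND-646, TVB-3166 and palbociclib overlap.

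Read per length, the order of the 6 genes changed with FASTIS. In day-0 cells the mean RPKM was 28.1 for LPCAT3, 11.3 for NR1H2, 8.75 for MYLIP, 5.89 for ABCG1, 1.85 for NR1H3 and 0.151 for ABCA1. With ND-646 it was 78.4 for LPCAT3, 45.9 for ABCG1, 24.5 for MYLIP, 16.7 for NR1H2, 1.87 for NR1H3 and 1.46 for ABCA1. ABCG1 thus moved from below both MYLIP and NR1H2 to above both. With TVB-3166 the RPKM of ABCG1 was 31.8, again above the 21.5 of MYLIP and the 13.7 of NR1H2.

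Whether the lipogenesis inhibitors differed from the other TIS drugs was tested directly, without the untreated libraries. The contrast took the mean of ND-646 and TVB-3166 minus the mean of bleomycin, doxorubicin, palbociclib and alisertib over the 18 drug-treated libraries. It called 5 of the 6 genes higher with the lipogenesis inhibitors, where 26.1% of 14052 genes were called higher. The log2 difference was 2.22 ± 0.09 for ABCG1 (adjusted p = 3.68e-11), 1.53 ± 0.18 for ABCA1 (adjusted p = 3.2e-06), 0.99 ± 0.10 for LPCAT3 (adjusted p = 3.24e-07), 0.69 ± 0.08 for MYLIP (adjusted p = 1.17e-06) and 0.45 ± 0.11 for NR1H2 (adjusted p = 0.00301). ABCG1 had rank 11 of all 14052 genes by the size of this difference in the upward direction. NR1H3 differed by 0.01, with a 95% confidence interval from -0.24 to 0.26. The NR1H2 difference was 0.29 without ND-646 replicate 1 and 0.29 with total-count scaling. Libraries of both drug classes overlapped for NR1H2 and MYLIP, and not for ABCG1, ABCA1 and LPCAT3. By mean level, NR1H2 with bleomycin (81.3 CPM) lay between ND-646 (89.2 CPM) and TVB-3166 (73.2 CPM). All 5 calls held when each ND-646 or TVB-3166 library, or the same replicate of all 4 other drugs, was left out.

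ND-646 and TVB-3166 act on successive enzymes of fatty acid synthesis and were given at the same dose and time. Their direct comparison over 6 genes called none in edgeR, where 0.52% of 13662 genes were higher and 0.198% lower with TVB-3166. By the unadjusted p-value under 0.05, 2 of the 6 were lower with TVB-3166, ABCG1 and ABCA1. By that p-value they ranked 403 and 1675 among the 13662 genes. Many other genes thus passed this rule, and the count is no result about the 6 genes as a set. The log2 difference, TVB-3166 minus ND-646, was -0.53 ± 0.12 for ABCG1 (95% confidence interval -0.82 to -0.24, adjusted p = 0.102) and -0.96 ± 0.38 for ABCA1 (-1.83 to -0.08, adjusted p = 0.292). DESeq2 and the fit of all 24 libraries each called 1 gene, ABCG1. Without ND-646 replicate 1, edgeR called 3 genes lower with TVB-3166: ABCG1, ABCA1 (log2 difference -1.3, adjusted p = 0.00163) and MYLIP (-0.34, adjusted p = 0.0253). In that fit 5% of all genes were called lower, against 0.198% with all libraries. The intervals of the other genes with all libraries were -0.57 to 0.21 for MYLIP, -0.62 to 0.32 for LPCAT3, -0.78 to 0.22 for NR1H2 and -0.23 to 0.74 for NR1H3, so differences of these sizes were not resolved.

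**Figure D3:**
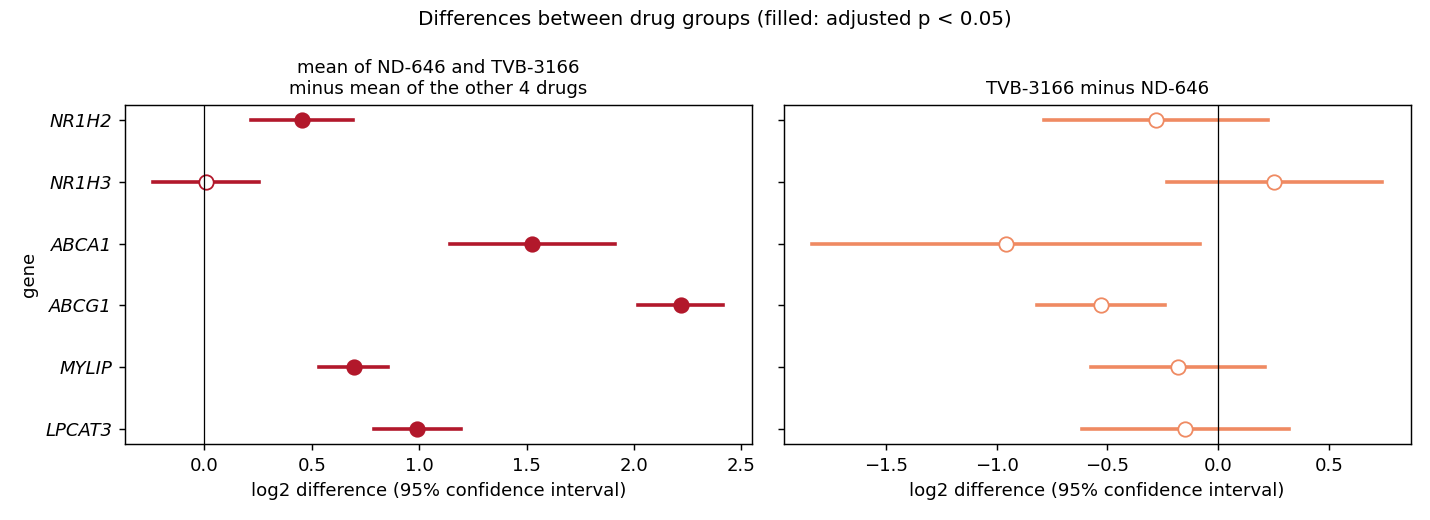
Log2 difference of each gene between the mean of ND-646 and TVB-3166 and the mean of the other 4 drugs (left), and between TVB-3166 and ND-646 (right), with 95% confidence intervals and filled points for an adjusted p-value under 0.05. On the left, 5 genes lie above 0 and NR1H3 at 0.01; on the right no gene is filled, and ABCG1 (-0.53) and ABCA1 (-0.96) have intervals below 0.

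The remaining genes of the pathway were read from lists fixed by name. In ND-646 cells 18.8% and in TVB-3166 cells 27.7% of all genes were called lower than in day-0 cells, beside the shares called higher given above. Without ND-646 replicate 1 the share called lower with ND-646 was 27.8%. Of 11 other LXR target genes in the table, 9 were higher with ND-646 and 9 with TVB-3166, and the list median was 1.45 and 1.3 on the log2 scale against 0.02 and -0.01 for all genes tested. They included SCD, the stearoyl-CoA desaturase (log2 fold-changes of 2.72 and 2.79 with ND-646 and TVB-3166), FASN itself (1.96 and 1.85), SREBF1, the gene of SREBP1 (1.90 and 1.71), and RNF145, a sterol-responsive ubiquitin ligase (1.99 and 1.3). In the contrast against the other TIS drugs 7 of the 11 were higher and 2 lower. Over day-7 cells 7 of the 11 were higher with each inhibitor, with list medians of 0.79 and 0.77. With alisertib 6 were higher over day-7 cells (list median 0.49), beside 9.55% of all genes. With doxorubicin 4 were higher, with palbociclib 4 higher and 1 lower, and with bleomycin 5 higher and 2 lower. Over day-0 cells the other drugs also raised members of this list, 6 of 11 with bleomycin, 8 with doxorubicin, 7 with palbociclib and 7 with alisertib, with list medians of 0.56 to 0.88. In untreated day-7 cells the list median was 0.49 over day-0 cells, and none was called. SCD, FASN and SREBF1 are also targets of SREBP proteins.

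The SREBP2 pathway moved in the same direction, although it and the efflux genes are usually regulated oppositely by sterol. All 9 listed genes in the table were higher with both inhibitors over day-0 cells, and all 9 in the contrast against the other TIS drugs. Over day-7 cells 8 were higher with ND-646 and 9 with TVB-3166. In the same comparison 6 were higher with alisertib, 4 with doxorubicin and 1 with bleomycin, and with palbociclib 1 was higher and 3 lower. Over day-0 cells 3 were also higher with bleomycin, 8 with doxorubicin, 4 with palbociclib and 8 with alisertib, and 1 was lower with palbociclib. In untreated day-7 cells 1 was higher over day-0 cells, beside 0.389% of all genes, and the list median was 0.29. With ND-646 and TVB-3166 over day-0 cells, INSIG1, which retains SREBP in the endoplasmic reticulum, had log2 fold-changes of 2.65 and 2.75. The sterol carrier STARD4 had 2.25 and 2.74, and the isoprenoid enzyme IDI1 had 1.70 and 2.08. Squalene synthase, FDFT1, had 1.85 and 1.83. Among 6 genes of MYLIP substrates and partner enzymes, 2 were higher with ND-646 and 4 with TVB-3166. The transcript of the substrate VLDLR, the very-low-density lipoprotein receptor (2.25 and 1.57), thus rose along with that of the ligase that targets its protein.

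Of 10 LXR partner and coregulator genes, among them the retinoid X receptors RXRA and RXRB, none was higher or lower with ND-646, with log2 fold-changes of -0.25 to 0.55. With TVB-3166 none was higher and 1 was lower, and the list median was 0.20. Over day-7 cells 2 of the 10 were higher with each inhibitor, beside 17.2% of all genes with ND-646 and 25.4% with TVB-3166. These counts of 2 in 10 are near the shares and are no result about the list as a set. In the contrast against the other TIS drugs 4 of the 10 were higher and none lower, beside 26.1% of all genes higher. Of 3 oxysterol enzymes in the table, 1 was lower with ND-646 and 2 with TVB-3166. SULT2B1, which sulfonates sterols and oxysterols, was lower with both, with log2 fold-changes of -3.65 with ND-646 and -3.01 with TVB-3166, from a level of 3.21 CPM in day-0 cells. Of 10 genes of sterol transport and storage, 4 were higher with each inhibitor, including the lysosomal sterol carriers NPC2 (1.89 and 1.37) and NPC1 (0.69 and 0.41) and the lysosomal lipase LIPA (1.00 and 0.99). The NPC1 calls were lost without day-0 replicate 2 and, for TVB-3166, also without TVB-3166 replicate 1 or 3. Over day-0 cells 6 of the 10 transport and storage genes were also higher with bleomycin and 7 with doxorubicin. Palbociclib gave 3 higher and 2 lower, and alisertib 3 higher. In the contrast against the other TIS drugs 4 of the 10 were higher and 1 lower, with a list median of 0.06.

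The relatives of the transporters and of LPCAT3 changed in both directions over day-0 cells. Of 5 ABC transporter relatives, ABCA5 was higher (1.01 and 1.62) and ABCG2, a drug exporter, was lower (-1.86 and -1.71). Of all genes, 19.1% were higher and 18.8% lower with ND-646, and 27.4% and 27.7% with TVB-3166. The counts of 1 in 5 are near these shares and are no result about the transporter relatives as a set. Of 6 lysophospholipid acyltransferase relatives, MBOAT7 was higher (0.59 and 0.29), while LPCAT2 (-0.81 and -0.77), LPCAT4 (-0.71 and -0.77) and MBOAT1 (-0.83 and -0.49) were lower with both inhibitors. The MBOAT7 call was lost without day-0 replicate 2 or 3 with either inhibitor, and with TVB-3166 also without TVB-3166 replicate 1 or 3. The LPCAT4 call with ND-646 was lost without day-0 replicate 3 or ND-646 replicate 2 or 3. Beside these changes, CD68, a lysosomal glycoprotein gene listed as a macrophage marker, was higher with both inhibitors (3.11 and 2.41). Of the 7 SKBR3 markers in the table, KRT8 (-1.19 and -0.91) and KRT19 (-0.98 and -0.88) were lower with both. In all, 2 markers were lower and 0 higher with ND-646, and 3 lower and 1 higher with TVB-3166. With the other drugs over day-0 cells, 4 markers were lower with bleomycin and 3 with each of doxorubicin, palbociclib and alisertib, and 0 were higher. Over day-7 cells 1 was lower and 0 higher with ND-646, and 2 were lower and 2 higher with TVB-3166. Of all genes, 17.1% were lower over day-7 cells with ND-646 and 26.1% with TVB-3166. These day-7 counts are near the shares and are no result about the markers as a set. The KRT19 call with ND-646 was lost without day-0 replicate 1 or 2 or ND-646 replicate 2 or 3. The part of these marker changes in the values of the 6 genes was not tested.

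The 6 genes were then set against each other and against all genes across the 24 libraries, as a description in which libraries of a group share their treatment. Pearson's r of log2 CPM was 0.93 between ABCG1 and LPCAT3 and 0.91 between ABCA1 and MYLIP. Within groups, after the group means were removed, these were 0.59 and 0.55, whereas ABCA1 and ABCG1 had 0.77 over all libraries and -0.16 within groups. The receptor transcripts had 0.70 over all libraries and 0.87 within groups. Among 14076 genes, the 5 with the highest Pearson's r to ABCG1 were MIA3 (0.965), MAGED2 (0.962), PHLDB3 (0.958), B4GALNT3 (0.954) and KCNJ11 (0.952). For ABCA1 they were CLDN12 (0.953), LAMP2 (0.924), TMEM30A (0.923), OGA (0.914) and VEGFA (0.910). Ranked by Spearman's rho instead, 0 of the 5 were shared for ABCG1 and 2 of the 5, LAMP2 and VEGFA, for ABCA1.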

How the data were processed

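The deposited table holds whole-number read counts per gene and library for 24 SKBR3 libraries. Per the labels and the study's methods, the authors aligned reads to GRCh37 with HISAT2, counted them with StringTie and compared groups with DESeq2. The counting settings are not given in the sources used here. The library kit is named as a stranded mRNA kit in the labels and as a stranded total RNA kit in the methods. Every listed gene has at least 1 count in every library, so a gene missing from the table was not analysed here.

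Each pair of groups was fitted in R 4.3.3 with edgeR 4.0.16 (filterByExpr, TMM, glmQLFit, glmQLFTest, 2-sided, all genes, Benjamini-Hochberg adjustment). The contrast between drug classes used 18 libraries. There were 15 comparisons. CPM levels used TMM over 24 libraries, log2 CPM a prior count of 2, and RPKM the exon length of GENCODE models lifted to GRCh37. The fit was tested on simulated counts. Groups came from the labels.

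The 6 genes and the lists were chosen with earlier results of these data known. From each list, at most 4 genes were named, those called in 1 direction with both inhibitors against day-0 cells and with the largest mean change. Some genes of the lists and of the overlaps are not reported here. For ABCG1 and ABCA1 the 5 genes with the highest Pearson's r were named. Alternatives were DESeq2 1.42.0, other size factors, other count filters, 1 fit of all libraries, a replicate block, a 2-fold threshold with unadjusted p under 0.05, total-count scaling (added after the data were seen) and leaving out each library. The replicate numbers paired the libraries (all 3 correlations of same-numbered deviations above 0.1) in TVB-3166 against ND-646 and in bleomycin, doxorubicin and alisertib against day-7 cells, and not in the other comparisons of 2 groups.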

Additional observations from a re-analysis of the deposited data

Results flagged for a closer look

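Of the 6 genes, 5 had a change that differed between drug classes by a test of the difference itself, the contrast of ND-646 and TVB-3166 with the other 4 TIS drugs in edgeR's quasi-likelihood fit. The log2 difference was 2.22 for ABCG1, 1.53 for ABCA1, 0.99 for LPCAT3, 0.69 for MYLIP and 0.45 for NR1H2. In the same contrast 26.1% of all genes were called higher. For MYLIP and NR1H2 the libraries of both drug classes overlapped, and mean NR1H2 was higher with bleomycin than with TVB-3166. Groups of 3 libraries are too small for a test of single outlying libraries.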

How the results depend on the processing

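Under a 2-fold threshold with an unadjusted p-value, the counts of the 6 genes called against day-0 cells fell to 1 with bleomycin, 1 with doxorubicin, 1 with palbociclib and 0 with alisertib. Against day-7 cells they fell to 1 with bleomycin, 0 with doxorubicin, 1 with palbociclib and 0 with alisertib, and in the contrast of drug classes to 2. That rule called 3.27% to 18.8% of all genes in these comparisons, so counts of 0 or 1 in 6 are near the background and are no result about the 6 genes. In 1 fit of all 24 libraries alisertib against day-7 cells gave 0, and with the replicate block 2, while TVB-3166 against ND-646 gave 1 in that fit and 1 by DESeq2. The block changed no other count of called genes by over 1.5 times. Where the numbers did not pair the libraries, it added NR1H2 with TVB-3166, LPCAT3 with doxorubicin and ABCG1 with palbociclib, all against day-0 cells. Leaving out 1 library gave counts of 3 to 6 for bleomycin, 1 to 2 for doxorubicin and 1 to 5 for alisertib against day-0 cells. Against day-7 cells it gave 3 to 4 for bleomycin, 1 to 2 for doxorubicin and 0 to 2 for alisertib, and 0 to 3 for TVB-3166 against ND-646.

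The near-zero NR1H3 values changed sign. With ND-646 against day-0 cells the log2 fold-change was -0.00080 with no filter, -0.0045 with the replicate block, -0.11 with total-count scaling and -0.21 to 0.16 with 1 library left out. In the contrast of drug classes it was -0.00868 with at least 10 counts in every library, -0.15 with total-count scaling, -0.11 to 0.090 with 1 FASTIS library left out and -0.10 without replicate 3 of the other 4 drugs. For TVB-3166 against ND-646, leaving out 1 library gave -0.43 to 0.027 for NR1H2 and -0.31 to 0.021 for LPCAT3. None of these passed the test in any setting, and the cause was not tested. Total-count scaling moved the median of all genes to -0.20 for ND-646 against day-7 cells and -0.13 in the contrast of drug classes. In untreated cells ABCA1 had the lowest counts of the 6 genes, at 1.06 to 3.62 CPM, and 3 libraries a group limit every p-value.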
